A study of Homo sapiens with 6 samples.

Results

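Erythroid and stem cell transcription factors were examined in K562, a cell line from a chronic myeloid leukaemia with features of early red cells and megakaryocytes. The genes were GATA1, GATA2, TAL1, KLF1, NFE2, LMO2, MYB, GFI1B and RUNX1. Their members are the splice junctions whose start and end lie inside 9 stated gene windows of the hg19 genome on the gene's strand. These windows held 384 of the 780566 junctions listed in the series, and 109 of the 384 were annotated, out of 242682 annotated junctions in all. The value of a junction is the number of uniquely mapped reads that span it. In all, 3 libraries of poly(A)+ RNA came from K562 cells labelled as U2AF1 wild type knock-in and 3 from K562 cells labelled U2AF1 S34F. U2AF1 encodes the small partner of the U2AF splicing factor and reads the AG at the end of introns, and S34F puts phenylalanine in the place of a serine in one of its zinc fingers. Both groups are sublines of one cell line, and whether the S34F subline is a single clone, or the replicates separate cultures, is not given in the sources used here. The p-values therefore measure the spread between these libraries, which may be technical.

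As background, these factors form the network that sets blood stem cell and erythroid identity. GATA1 and GATA2 bind the same DNA word, and GATA2 gives way to GATA1 as red cells mature. TAL1 binds DNA beside them and is joined to the GATA factors by LMO2 and LDB1 in 1 complex. KLF1 binds CACCC sequences of globin and other red cell promoters, NFE2 acts at globin enhancers, and GFI1B represses genes of other fates. MYB and RUNX1 act earlier, in stem and progenitor cells. Several of the genes make protein forms that differ by 1 exon or by their first exon, and a junction count shows such choices directly.

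Depth, as uniquely mapped reads across junctions, was 25429944, 24930980 and 19380519 for wild type against 23462995, 18074706 and 39279169 for S34F. The 9 windows took 12985, 11872 and 8809 of these reads in wild type against 9845, 7494 and 21975 in S34F, so that S34F replicate 3 gives the most precise and S34F replicate 2 the least precise shares. Wild-type replicate 1 and S34F replicate 2 were each closer to the other than to their own group. Over 96285 annotated junctions their log2 values correlated at 0.96 (Pearson's r across junctions, no independent replicates). Wild-type replicate 1 stood at 0.949 and 0.952 with wild-type replicates 2 and 3. S34F replicate 2 stood at 0.948 with S34F replicate 1 and 0.948 with S34F replicate 3. Among the marker genes, the globins of the K562 line were read in every library. HBG2 totals were 1909, 908 and 1029 reads per 1000000 unique spliced reads (RPM) in wild type against 2023, 2536 and 1188 in S34F. The T cell gene CD3E and the granulocyte gene MPO did not exceed 2.28 RPM in any library. The embryonic globin HBZ was the marker that passed the test described next. It was at 120, 243 and 161 RPM in wild type against 544, 398 and 472 in S34F (log2 difference 1.42, SE 0.24, edgeR adjusted p = 0.0428). The call was lost when multi-mapped reads were added (adjusted p = 0.0522), with the replicate block (0.0976) and when any library but S34F replicate 2 was left out (0.0696 to 0.185). The other embryonic globin, HBE1, was at 89.8, 59.8 and 43.4 RPM in wild type against 1275, 142 and 179 in S34F, with S34F replicate 1 far above the rest (log2 difference 3.00, SE 1.06, edgeR adjusted p = 0.343). Their part in the results below was not tested.

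All 9 factors were expressed in every library, and GATA1 was the most highly expressed. To compare genes without an effect of transcript length, the level of a gene was taken as the median RPM over its annotated junctions with at least 25% of the reads of its most-read one. GATA1 had the highest level, with a median over the 6 libraries of 27.6 RPM per junction (range 21.0 to 32.4). MYB followed at 10.5 (6.05 to 14.5), and these ranges did not overlap. NFE2 was at 7.21 (6.85 to 11.7), GATA2 at 6.17 (4.26 to 8.53), KLF1 at 6.14 (4.84 to 10.2) and GFI1B at 5.64 (4.27 to 8.49). TAL1 was at 4.07 (2.67 to 5.63), LMO2 at 3.70 (2.97 to 6.62) and RUNX1 at 3.27 (1.75 to 8.27). From MYB to RUNX1 the ranges of neighbours in this order overlapped, so that their order is not settled. The level of GATA1 divided by that of GATA2 was 5.23, 3.25 and 3.14 in the wild-type libraries and 4.84, 6.26 and 3.80 in the S34F libraries, and the groups overlapped.

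**Figure D1:**
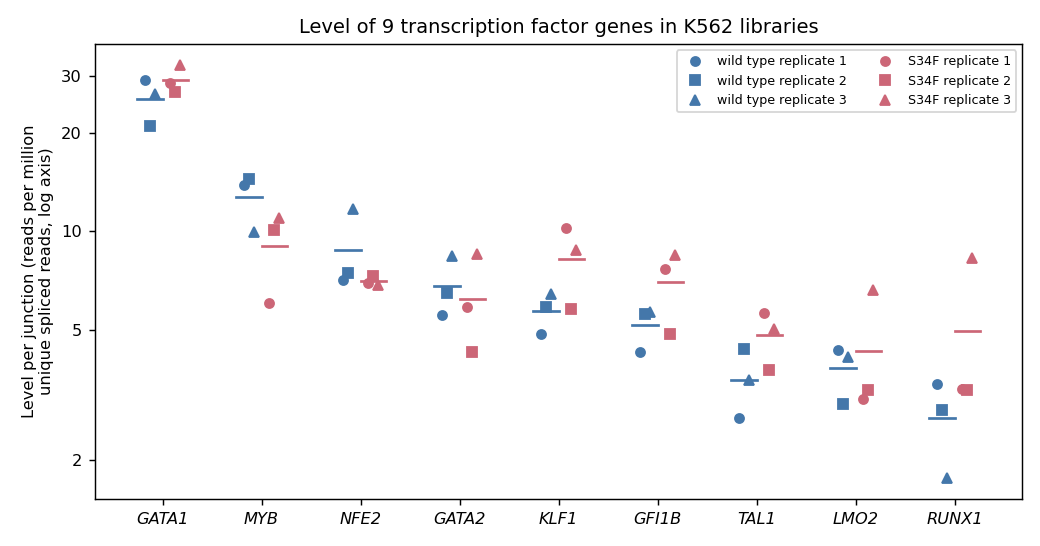
Level per junction of the 9 genes on a log axis, in RPM; each symbol is 1 library, blue for wild type and red for S34F, and lines are group means of 3 libraries. GATA1 lies above the other 8 genes in all libraries, from 21.0 to 32.4, and S34F replicate 3 stands above the other libraries for RUNX1.

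The first comparison asks whether U2AF1 S34F changed the abundance of these transcripts. No factor passed the test, and for each of the 9 genes the wild-type and S34F ranges overlapped. The annotated reads of each gene were summed and fitted with edgeR's quasi-likelihood test in 1 table with every other annotated junction of the genome. At a Benjamini-Hochberg adjusted p under 0.05, 0.198% of the 114139 features of that table were called, and 0 of the 9 factors. DESeq2 and limma-voom also called 0 of the 9. At an unadjusted p under 0.05 the share was 13.6% over all features, and 3 of the 9 genes lay there: KLF1 and TAL1 higher in S34F, and MYB lower. Groups did not overlap in 17.6% of all features and in 0 of the 9 genes. Nearly all of these features are single junctions, whereas the 9 genes are sums over junctions. The shares over all features are therefore not a like-for-like expectation for the genes. The median log2 difference over the 9 genes was 0.15, with 6 of them positive, against 0.01 over all features.

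KLF1 and TAL1 had the lowest unadjusted p-values among genes that were higher on average in S34F. KLF1 totals were 9.67, 11.7 and 12.8 RPM in wild type against 20.4, 11.6 and 17.5 in S34F. Here S34F replicate 2 sat among the wild-type libraries and the other S34F libraries above them. The log2 difference was 0.51 (SE 0.20, unadjusted p = 0.0222, edgeR adjusted p = 0.286). TAL1 totals were 9.28, 15.9 and 11.5 RPM in wild type against 18.8, 13.7 and 17.8 in S34F, where wild-type replicate 2 exceeded S34F replicate 2. Its log2 difference was 0.44 (SE 0.20, unadjusted p = 0.0424, edgeR adjusted p = 0.35).

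MYB, which keeps progenitors dividing, went the other way. Its totals were 226, 210 and 153 RPM in wild type against 99.5, 148 and 161 in S34F. Wild-type replicate 3 lay below S34F replicate 3, and S34F replicate 1 was the lowest library. The log2 difference was -0.54 (SE 0.23, unadjusted p = 0.0341, edgeR adjusted p = 0.326).

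RUNX1 had the largest average difference and also the largest spread. Its totals were 19.7, 15.8 and 10.8 RPM in wild type against 16.0, 18.4 and 42.8 in S34F, so that 1 library, S34F replicate 3, held the difference. The log2 difference was 0.70 (SE 0.38, edgeR adjusted p = 0.465), and it was 0.19 without that library. With no filter on low counts the same difference had an edgeR adjusted p of 0.0179. GFI1B totals were 25.9, 34.4 and 34.3 RPM in wild type against 44.9, 29.9 and 51.0 in S34F (log2 difference 0.38, SE 0.19, edgeR adjusted p = 0.394), again with S34F replicate 2 inside the wild-type range.

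The other 4 factors differed by less than their standard errors. GATA1 totals were 129, 92.1 and 120 RPM in wild type against 125, 117 and 144 in S34F (log2 difference 0.15, SE 0.19). GATA2 totals were 30.4, 42.5 and 44.8 against 32.8, 27.7 and 51.1 (-0.10, SE 0.21). NFE2 totals were 23.2, 25.7 and 33.1 against 33.4, 23.7 and 22.2 (-0.06, SE 0.20), and LMO2 totals were 19.0, 15.2 and 19.2 against 15.0, 11.8 and 28.6 (0.02, SE 0.26). Their edgeR adjusted p-values ran from 0.761 for GATA1 to 0.984 for LMO2. In these bulk samples fewer cells with a transcript and less transcript per cell cannot be told apart.

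Of 11 listed partner genes of the same complexes and lineage, 9 had enough reads to be tested. Of these, 0 were called by edgeR, and 1, ZFPM1, had an unadjusted p under 0.05. ZFPM1 encodes FOG1, the cofactor of GATA1; it was at 11.7, 13.1 and 11.6 RPM in wild type against 16.2, 13.0 and 40.0 in S34F (log2 difference 0.89, SE 0.35, edgeR adjusted p = 0.331), with S34F replicate 3 far above the rest as for RUNX1. The myeloid factor SPI1 was at 26.3, 14.7 and 11.2 against 8.40, 10.2 and 13.8 RPM (log2 difference -0.71, SE 0.32, edgeR adjusted p = 0.37). LDB1, the bridge of the TAL1 complex, was at 156, 133 and 137 against 134, 149 and 176 RPM (0.09, SE 0.18). FLI1 and BCL11A had at most 1 annotated read in any library.

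**Figure D2:**
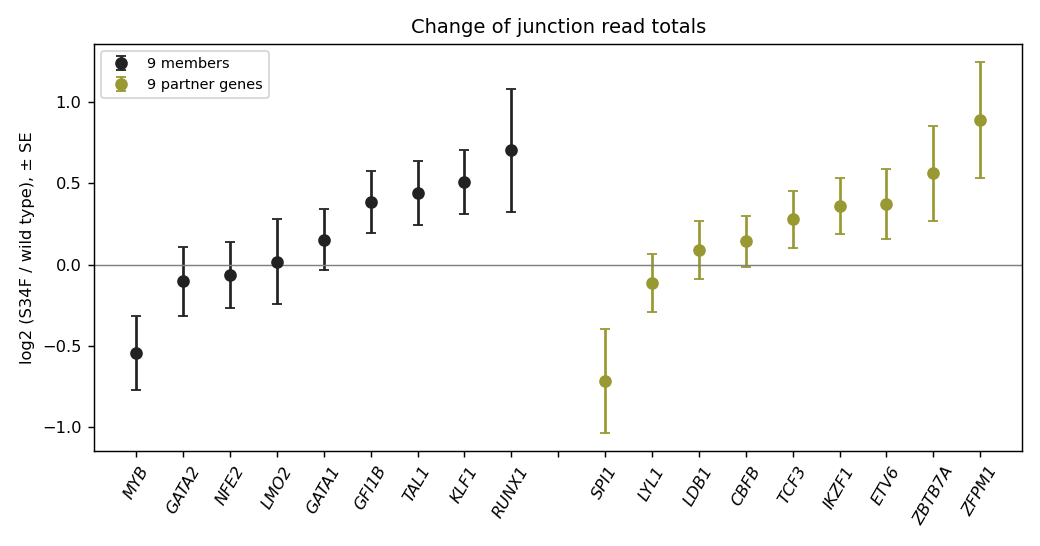
log2 of S34F over wild type for the summed annotated junction reads of the 9 factors (black) and 9 tested partner genes (olive), with 1 SE on each side, from edgeR and 3 libraries a group. The factors run from -0.54 for MYB to 0.70 for RUNX1, and none of the 18 points passed the test across all features.

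The remaining comparisons ask whether S34F changed how these transcripts were spliced. Acceptor usage is the share of a junction among those leaving the same 5′ splice site, and donor usage its share among those reaching the same 3′ splice site. Competing acceptors are pairs at most 100 nt apart, and cassette exons span at most 500 nt and have a skipping junction. Inclusion is the mean of the reads entering and leaving the exon, over that mean plus the skipping reads. Entering and skipping reads share the same donor, whereas reads leaving the exon can stem from transcripts that entered it otherwise. An event was called at an edgeR adjusted p under 0.05 within its class with a difference of at least 10 percentage points. By that rule 2.12% of 51522 junctions were called for acceptor usage over the genome, and 0 of 57 in the 9 genes. For donor usage 0.934% of 48269 were called, and 0 of 61 here. For competing acceptors 2.85% of 5684 pairs were called, and 0 of 5 here, and for cassette exons 2.5% of 19202, and 0 of 23. By the adjusted p alone the shares over the genome were 4.64%, 2.04%, 6.53% and 5.5%, and 0 members passed in any class. DESeq2 and limma on log2 odds called 0 members in each class as well, and so did the edgeR fits without wild-type replicate 1. Over the genome, in the same order of classes, DESeq2 called 110, 43, 36 and 72 events and limma 0, 0, 9 and 0. The edgeR fits without wild-type replicate 1 called 1932, 1208, 169 and 1051. Where limma called 0 events over the genome, its 0 members could not have come out otherwise.

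Fewer member events had a low p than events did over the genome in 3 of the 4 classes. At an unadjusted p under 0.05 stood 3 of the 57 acceptor usage events (19.9% over all events), 4 of the 61 donor usage events (17.3%), 2 of the 5 acceptor pairs (17.3%) and 1 of the 23 exons (23.7%). Groups did not overlap in 10 of 57 events for acceptor usage against 25.2% over all events, and in 9 of 61 for donor usage against 22.4%. They did not overlap in 3 of the 5 pairs against 21.1%, and in 2 of the 23 exons against 29.2%. Many of these events share junctions and reads, and MYB alone gave 15 of the 23 exons, so the counts are descriptions. Shares below are means ± SD over 3 libraries a group.

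GATA1 makes a full-length protein from transcripts with exon 2, which holds the first start codon, and the short form GATA1s, without the N-terminal activation domain, from transcripts that skip it. Exon 2, 239 nt at positions 48649498 to 48649736 of the X chromosome, was included in 71.5%, 71.0% and 82.9% of the spliced reads in wild type. The values in S34F were 85.2%, 77.4% and 80.2%. Wild-type replicate 3 lay inside the S34F range and the other wild-type libraries below it. The means were 75.2% ± 6.7 and 80.9% ± 4.0 (log2 odds 0.48, SE 0.37, edgeR adjusted p = 0.449). The skipping junction, 48645054 to 48650250, is not in the annotation the authors used and had 739 reads over the 6 libraries. It made up 29.2% ± 7.1 of the reads leaving the first exon in wild type against 22.0% ± 4.2 in S34F (edgeR adjusted p = 0.415), and 21.5% ± 6.2 and 16.7% ± 3.7 of those reaching exon 3 (edgeR adjusted p = 0.596).

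The last intron of GATA1 gave the lowest p-value of the gene. An unannotated acceptor at 48652184, 15 nt upstream of the annotated one at 48652199, took 2.0%, 1.9% and 2.6% of the pair's reads in wild type. In S34F it took 0.3%, 1.1% and 1.1%, below each wild-type library. The log2 odds differed by -1.25 (SE 0.43, unadjusted p = 0.0052, edgeR adjusted p = 0.0694). The pair held 64 upstream reads in all, and the difference of the means was 1.31 percentage points. A second GATA1 pair, 2 nt apart at 48650729 and 48650731, was at 99.1% and 98.6% for the upstream acceptor (edgeR adjusted p = 0.603). The most-read GATA1 junction, 48650876 to 48651578, had 32.8, 23.3 and 28.8 RPM in wild type against 30.6, 26.7 and 33.7 in S34F.

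GATA2, the stem and progenitor GATA factor, has a distal first exon used in early blood cells and a proximal one used more widely. The distal one, with its donor at 128211741 on chromosome 3, had 1 read in all 6 libraries. At the exon whose donor is 128206553, reads into the exon numbered 3, 2 and 6 in wild type against 87, 118 and 103 out of it. In S34F there were 12, 6 and 19 reads in and 81, 50 and 191 out. Far fewer reads thus entered the exon by a listed splice than left it. The part of 5′ coverage in this was not tested. The ratio of reads in to reads out was 3.4%, 1.7% and 5.8% in wild type against 14.8%, 12.0% and 9.9% in S34F, where each library lay above each wild-type one. The exact permutation test, two-sided, gave p = 0.1, the smallest that 3 against 3 libraries allow, and 0.55 after adjustment over 11 such ratios, and this ratio was singled out after its values were seen. Within GATA2 the upstream of 2 acceptors 42 nt apart, at 128200788 and 128200746, took 97.1% of reads in wild type against 96.5% in S34F (edgeR adjusted p = 0.813), and the pair at 128200162 and 128200154 stood at 99.6% and 99.3% (0.693).

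TAL1, a basic helix-loop-helix factor needed for all blood lineages, has an upstream and a downstream annotated first exon. Junctions from the upstream one, with the donor at 47697838 on chromosome 1, were 77.1%, 81.4% and 73.5% of those from both first exons in wild type. They were 85.1%, 86.5% and 81.1% in S34F, and the ranges overlapped by wild-type replicate 2 alone (exact permutation p = 0.2, adjusted 0.733). The reads from both first exons numbered 35, 59 and 34 in wild type against 47, 37 and 90 in S34F. These shares cover both first exons only: over the 6 libraries they gave 131 and 54 reads into the acceptor 47695024, whereas the junction out of the same exon, 47694867 to 47691562, had 586. Far fewer reads thus entered that exon from these first exons than left it, and the part of 5′ coverage in this was not tested. The 2 RefSeq promoter windows of the gene, 250 bases before each start in GRCh38.p14 on the minus strand, are shown because they go with these alternative first exons by their order along the strand. Capitals mark the GATA factor word GATAA or its reverse complement TTATC, which occurs in 20.4% of the 35116 RefSeq promoter windows of this length.
TAL1 upstream, chr1:47232336-47232585: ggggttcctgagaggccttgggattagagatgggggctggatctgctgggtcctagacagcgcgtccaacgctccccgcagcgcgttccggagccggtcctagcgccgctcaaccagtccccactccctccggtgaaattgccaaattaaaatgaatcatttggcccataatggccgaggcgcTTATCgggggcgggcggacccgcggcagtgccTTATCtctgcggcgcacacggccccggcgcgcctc
TAL1 downstream, chr1:47231716-47231965: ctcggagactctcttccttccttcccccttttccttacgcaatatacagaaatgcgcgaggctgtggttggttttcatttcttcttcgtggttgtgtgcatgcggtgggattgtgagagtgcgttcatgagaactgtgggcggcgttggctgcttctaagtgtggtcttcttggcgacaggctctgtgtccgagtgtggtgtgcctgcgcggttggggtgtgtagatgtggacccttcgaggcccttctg
The upstream window has 2 such matches, 67 and 35 bases before the start, and the downstream one has 0. A match is a run of letters and was not tested for binding.

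Reads leaving the TAL1 upstream first exon were spread over annotated and unannotated targets. The annotated junction to 47695024 took 40.7%, 60.4% and 60.0% of them in wild type against 67.5%, 46.9% and 46.6% in S34F. Unannotated junctions to any target took 46.3% ± 11.2 in wild type against 46.3% ± 12.0 in S34F. The one to 47691562 stood at 32.5% ± 10.5 and 26.6% ± 8.5 and the one to 47689771 at 13.8% ± 1.6 and 19.7% ± 5.0; for the latter the S34F libraries lay above the wild-type ones, with 25 to 73 reads from that donor (edgeR adjusted p = 0.661). The 156 nt exon at 47694868 to 47695023, skipped by the first of these, stood at 82.6% ± 4.9 in wild type against 83.6% ± 6.6 in S34F (edgeR adjusted p = 0.926). The 447 nt stretch at 47691115 to 47691561 stood at 89.2% and 87.9% (0.958). Both values count all reads leaving the exon, so they lie above inclusion from the upstream first exon alone. For the 156 nt exon that donor gave 11, 29 and 15 entering reads in wild type and 27, 15 and 34 in S34F. Skipping reads numbered 12, 12 and 7 and then 7, 9 and 25. Reads leaving the exon numbered 68, 109 and 68 and then 119, 55 and 167. Into the acceptor 47695024 the upstream donor gave 55.7% ± 7.1 and 66.6% ± 7.3 (0.661) and the downstream donor, 47696718, gave 28.4% ± 5.8 and 22.8% ± 6.5 (0.84). The donor 47691114 gave 88.9% and 90.9% of the reads into 47689771 (0.751). None of these TAL1 shares passed.

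LMO2, the LIM domain bridge of the TAL1 complex, has distal, intermediate and proximal first exons, and its starts varied most between libraries. Reads into the shared acceptor 33891534 on chromosome 11 totalled 128, 79 and 92 in wild type against 102, 43 and 313 in S34F. The proximal donors, 33891890 to 33891667, gave 55.5%, 63.3% and 30.4% of them in wild type against 35.3%, 81.4% and 30.4% in S34F. The intermediate donors, 33903369 and 33903364, gave 21.9%, 20.3% and 41.3% against 35.3%, 2.3% and 24.0% by a direct junction. High and low libraries occurred in both groups: S34F replicate 2 was mostly proximal, and wild-type replicate 3 and S34F replicate 3 were not. The ranges overlapped for both.

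An unannotated LMO2 exon lay between these starts. Its acceptor, 33899411, was reached from the intermediate donor 33903369 by 31, 15 and 42 reads in wild type against 47, 6 and 156 in S34F. Its donors, 33899336 and 33899309, gave 22.7%, 15.2% and 27.2% of the reads into the shared acceptor in wild type against 29.4%, 16.3% and 45.0% in S34F. More reads thus left the intermediate donor for this exon than went directly to the shared acceptor, 297 against 158 over the 6 libraries. The donor 33899336 stood at 9.0% ± 2.4 and 14.2% ± 7.5 (edgeR adjusted p = 0.366) and the donor 33903369 at 23.4% ± 7.2 and 17.3% ± 15.0 (0.768). Reads from the distal first exon, donor 33913341, equalled 13.3%, 12.7% and 20.7% of the shared acceptor's reads in wild type against 4.9%, 4.7% and 12.1% in S34F, each S34F library below each wild-type one (exact permutation p = 0.1, adjusted 0.55). Of the reads into 33891133, the donor 33891370 gave 91.2% and 94.6% (edgeR adjusted p = 0.719).

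**Figure D3:**
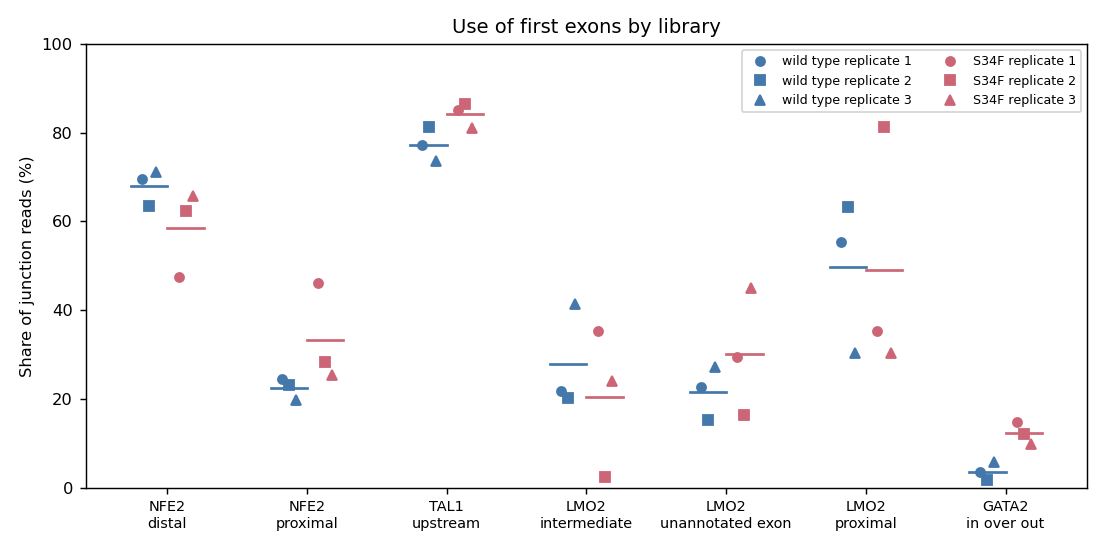
Share of junction reads (%) from alternative first exons or donors, by library: NFE2 as the share of reads into its shared acceptor, TAL1 as the upstream share of both first exons, LMO2 as the share into its shared acceptor, GATA2 as reads into an exon over reads out of it. Symbols are libraries and lines group means of 3; the LMO2 proximal share runs from 30.4% to 81.4%, and the GATA2 ratio is 5.8% at most in wild type against 9.9% at least in S34F.

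KLF1, the factor that activates adult beta globin, has 2 annotated introns and showed almost no alternative splicing. The junction 12996130 to 12995875 on chromosome 19 had 1368 reads and the junction 12997867 to 12996957 had 795. Unannotated junctions took 1.20%, 1.35% and 1.58% of its reads in wild type against 1.24%, 1.88% and 1.85% in S34F. The most-read of them, 12997750 to 12996957, had 20 reads. The KLF1 promoter window, 250 bases before the RefSeq start in GRCh38.p14 on the minus strand, is shown because KLF1 had the lowest unadjusted p-value of the 9 totals, which was not called; the window was chosen after that value was seen.
KLF1, chr19:12887202-12887451: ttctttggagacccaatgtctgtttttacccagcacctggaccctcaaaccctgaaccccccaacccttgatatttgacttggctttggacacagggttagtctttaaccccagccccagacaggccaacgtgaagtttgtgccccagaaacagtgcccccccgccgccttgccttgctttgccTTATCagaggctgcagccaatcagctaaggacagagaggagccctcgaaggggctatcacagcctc
It has 1 match to the GATA word, in capitals, 66 bases before the start, and 0 to CACCC or its reverse complement GGGTG, which occurs in 54.7% of the RefSeq windows. For comparison, CACCC matched 0 times in the upstream and 1 time in the downstream TAL1 window. Of the 9 genes 7 were found in the RefSeq table, with 10 windows, and 3 of the 10 held a match to the GATA word.

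NFE2, the p45 subunit of the factor that binds globin enhancers, uses a distal and a proximal first exon that splice into 1 acceptor, 54689089 on chromosome 12. The proximal donor, 54689327, took 24.6%, 23.2% and 19.7% of the reads there in wild type against 46.2%, 28.3% and 25.4% in S34F. All S34F libraries were above all wild-type ones, by less than 1 percentage point at the nearest and with S34F replicate 1 alone far above. The means were 22.5% ± 2.5 and 33.3% ± 11.3 (log2 odds 0.76, SE 0.40, edgeR adjusted p = 0.33). The difference was 0.34 in log2 odds in the leave-one-out fit in which it was smallest. The distal donor, 54694584, took 69.6%, 63.5% and 71.2% in wild type against 47.4%, 62.3% and 65.8% in S34F (edgeR adjusted p = 0.45).

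A 130 nt exon between them, at 54693931 to 54694060, was included at 10.9% ± 3.3 in wild type against 9.4% ± 1.9 in S34F (edgeR adjusted p = 0.827). Its own donor gave 7.9% and 5.3% of the reads into the shared acceptor (0.542). From the distal donor, 88.6% and 88.7% of reads went straight to the shared acceptor (0.967), and 11.2% and 10.5% to the exon (0.967). An unannotated donor at 54689215 had 0 reads in each wild-type library and 3, 4 and 3 in the S34F libraries. In S34F these were 0.9%, 1.9% and 0.7% of the reads into the acceptor. Its p-value was the lowest of the gene (unadjusted p = 0.0027, edgeR adjusted p = 0.0761). The donor met the minimum of 10 reads through the S34F libraries alone, so this p-value is no evidence of a difference.

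GFI1B, a zinc finger repressor of the red cell and platelet lineages, makes a shorter form without part of its zinc finger region when a 138 nt exon is skipped. That exon, at 135864448 to 135864585 on chromosome 9, was included at 94.4%, 85.5% and 92.0% in wild type against 94.9%, 83.7% and 92.4% in S34F. The values of the groups interleaved, with means of 90.7% ± 4.6 and 90.3% ± 5.9 (edgeR adjusted p = 0.898). On the acceptor side the exon took 91.6% and 90.6% (0.978), and skipping gave 11.4% and 10.5% of the reads into 135865128 (0.835). At the next intron an unannotated acceptor, 135865062, lies 66 nt upstream of the annotated 135865128. It took 11.2%, 14.6% and 15.2% of the pair's reads in wild type against 3.9%, 9.6% and 9.0% in S34F. Each S34F library was below each wild-type one, at 13.7% ± 2.2 and 7.5% ± 3.1 on average (log2 odds -0.96, SE 0.44, unadjusted p = 0.0327, edgeR adjusted p = 0.228). Measured against all junctions of that donor the annotated acceptor stood at 86.0% and 92.1% (0.27) and the upstream one at 13.6% and 7.5% (0.26), from 81 upstream reads in all.

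The first exons of GFI1B were read almost only at the proximal start. The upstream one gave 0 reads in 5 libraries and 4 of 282 in S34F replicate 3. The promoter windows of both starts, RefSeq, GRCh38.p14, plus strand, are shown for this contrast. They were matched to these first exons only by order along the strand, and the distance from start to donor was not checked.
GFI1B upstream, chr9:132945281-132945530: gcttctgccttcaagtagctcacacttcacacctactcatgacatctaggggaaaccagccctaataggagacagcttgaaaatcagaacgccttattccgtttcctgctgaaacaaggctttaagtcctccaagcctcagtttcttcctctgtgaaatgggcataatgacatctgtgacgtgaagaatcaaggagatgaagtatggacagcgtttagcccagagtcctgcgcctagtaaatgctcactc
GFI1B proximal, chr9:132978444-132978693: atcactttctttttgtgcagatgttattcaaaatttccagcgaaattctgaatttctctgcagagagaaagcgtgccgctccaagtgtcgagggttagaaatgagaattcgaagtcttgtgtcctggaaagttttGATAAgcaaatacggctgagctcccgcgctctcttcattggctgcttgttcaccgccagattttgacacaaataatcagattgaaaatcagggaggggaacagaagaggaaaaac
The proximal window has 1 GATAA, in capitals, 115 bases before the start, and the upstream window has 0.

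MYB gave the exon with the lowest p-value among the 23. A 363 nt exon, 121 codons long, at 135518099 to 135518461 on chromosome 6, gives the longer p89 form of the protein. It was included at 26.0%, 22.7% and 23.8% in wild type against 35.4%, 38.7% and 33.7% in S34F. The libraries of each group lay close together and the groups did not overlap. The means were 24.1% ± 1.7 and 35.9% ± 2.5, a difference of 11.8 percentage points (log2 odds 0.81, SE 0.35, unadjusted p = 0.0339, edgeR adjusted p = 0.172). Leaving out each library in turn gave log2 odds from 0.73 to 0.88, and no such fit called the exon. The fit without S34F replicate 3 called 0 cassette exons over the genome.

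The junctions of this exon gave the same picture because they share its reads. Of the reads into 135520045, the exon's donor, 135518462, gave 31.0%, 24.9% and 28.6% in wild type against 41.7%, 42.8% and 38.0% in S34F (28.1% ± 3.1 and 40.8% ± 2.5, edgeR adjusted p = 0.235). The skipping donor, 135517141, gave 68.9% ± 4.1 and 54.8% ± 4.1 (0.212). From that donor 18.3% ± 1.3 and 26.8% ± 2.3 of the reads entered the exon (0.274), and 80.5% ± 0.8 and 71.8% ± 1.7 skipped it (0.278). A form of the exon with an unannotated donor, 157 nt long, stood at 10.6% ± 0.3 and 16.5% ± 1.7 (0.258), also with no overlap. It shares the entry junction with the 363 nt form, and the junction at its own donor had 15 reads. Inclusion of the 363 nt exon computed with the donor 135517056 was 93.3% and 93.5% (0.938). It does not show inclusion from this donor, which entered the exon with 13 reads in all and skipped it with 22. The value also counts the 622 reads leaving the exon, whereas the donor 135517141 gave 334 entering reads.

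Other MYB events differed less. A 122 nt exon at 135516098 to 135516219 was at 16.5% ± 6.3 and 19.1% ± 1.2 computed with the donor 135515590 (edgeR adjusted p = 0.83). With the donor 135515599 it was at 5.1% ± 0.8 and 5.8% ± 2.3 (0.936). Both values count the 93 reads leaving the exon. The donor 135515590 gave 17 entering and 261 skipping reads, and the donor 135515599 gave 37 and 1177. From 135520189 the annotated junction to 135521222, the most-read of the gene with 2279 reads, took 90.7% ± 5.7 and 92.9% ± 1.1 (0.741). Into 135507040 the donor 135502675 gave 89.5% ± 3.9 in wild type against 94.4% ± 2.4 in S34F (0.324).

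RUNX1, the partner of CBFB, lacks part of its regulatory region when a 192 nt exon is skipped. The exon, at 36206707 to 36206898 on chromosome 21, was included at 86.5%, 85.7% and 100% in wild type against 88.6%, 83.3% and 84.1% in S34F, with wild-type replicate 3 apart from the rest and the shallowest for this gene. The means were 90.8% ± 8.0 and 85.4% ± 2.9 (edgeR adjusted p = 0.581). From its upstream donor, 36231770, 89.9% and 84.5% of reads entered it (0.565) and 8.0% and 14.1% skipped it (0.468). Into 36171760 the exon gave 89.3% and 84.6% (0.797) and the skipping junction 10.7% and 14.9% (0.837). From the donor 36206706 the same acceptor took 94.2% and 94.0% (0.996).

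RUNX1a, the short form without the C-terminal transactivation domain, ends at an alternative last exon. The junction from 36206706 to 36193994 into that exon had 5, 0 and 1 reads of 77, 73 and 35 from its donor in wild type against 7, 1 and 14 of 85, 67 and 344 in S34F, and the groups overlapped. At the exon that begins transcripts of the proximal promoter, reads in from upstream numbered 18, 8 and 4 against 87, 62 and 34 out in wild type. In S34F they numbered 4, 7 and 29 against 53, 52 and 273 out. The ratio was 20.7%, 12.9% and 11.8% in wild type against 7.5%, 13.5% and 10.6% in S34F (exact permutation p = 0.3, adjusted 0.825). In both groups far fewer reads thus entered this exon from upstream than left it. The part of 5′ coverage in this was not tested.

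**Figure D4:**
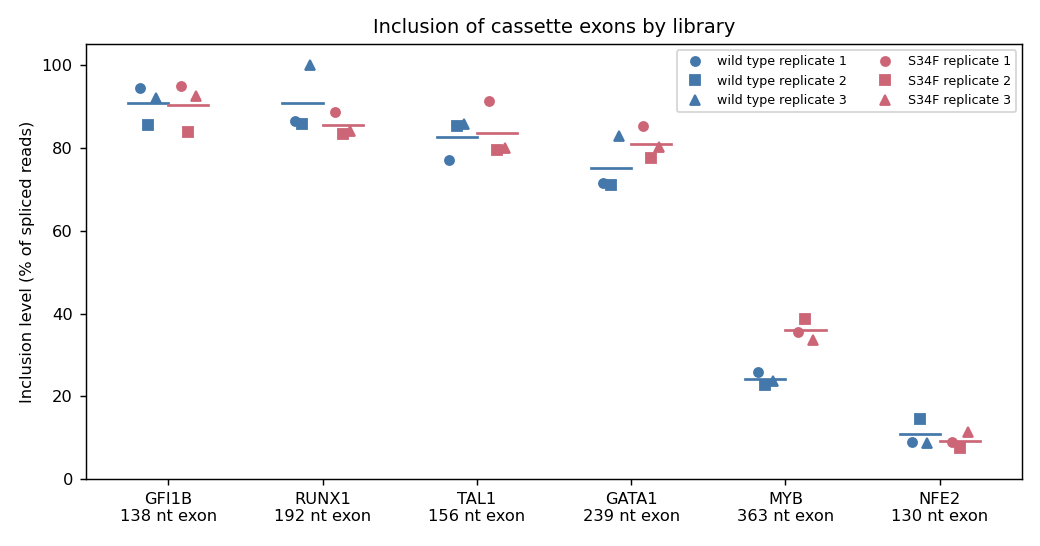
Inclusion level (% of spliced reads) of 6 cassette exons, by library, with group means of 3 libraries as lines. The MYB 363 nt exon is at 22.7% to 26.0% in wild type against 33.7% to 38.7% in S34F, with no overlap; the groups overlap for the other 5, and none of the 6 was called.

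The last comparison asks whether S34F moved reads to splice junctions outside the annotation. In the 9 genes together, unannotated junctions took 3.61%, 2.61% and 3.29% of the reads in wild type against 3.30%, 3.07% and 4.26% in S34F. The means, 3.17% ± 0.51 and 3.54% ± 0.63, differed by less than the spread between libraries (exact permutation p = 0.5, adjusted 0.857 over 10 values). Over all genes the shares were 1.25%, 1.03% and 1.15% in wild type against 1.30%, 1.24% and 1.38% in S34F. LMO2 had the highest share of the 9 in 5 of 6 libraries, at 16.9%, 10.2% and 22.0% in wild type against 25%, 8.15% and 28.0% in S34F, most of it at the unannotated exon described above. TAL1 followed at 7.35% to 9.85%, and GATA1 at 2.95% to 6.02%, where the junction that skips exon 2 was most of it. In the other 6 genes no library exceeded 4.75%, and in all 9 genes the groups overlapped.

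**Figure D5:**
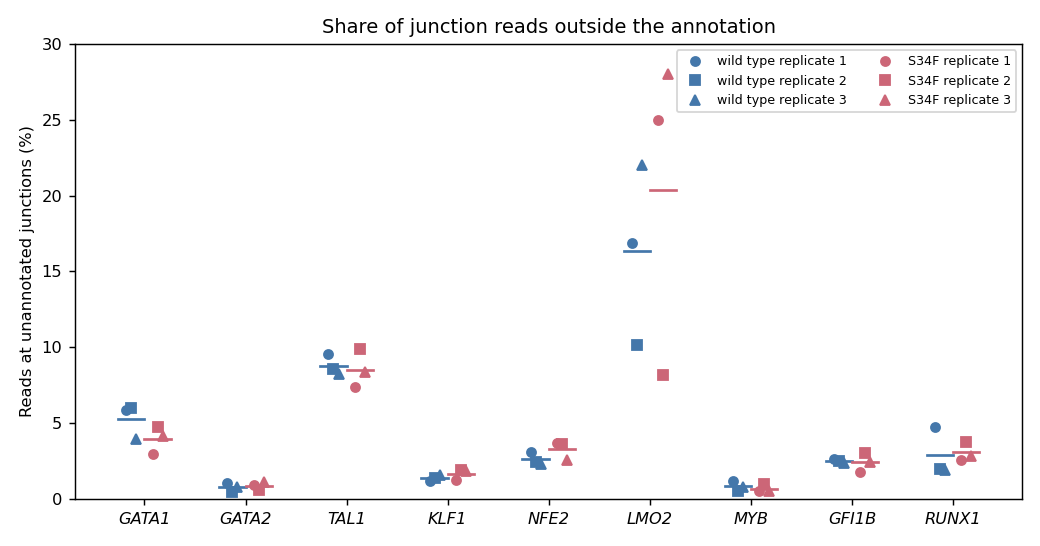
Share of each gene's junction reads (%) at unannotated junctions, by library, with group means of 3 libraries as lines. LMO2 runs from 8.15% to 28.0% with both groups spread over that range, TAL1 and GATA1 follow, and the groups overlap in each gene.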

How the data were processed

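Each of the 6 libraries came with 1 deposited table of splice junctions, made with STAR on hg19 per the submitters' processing notes; the aligner version, annotation and junction filters are not given in the sources used here. The values used are the authors' raw counts of uniquely mapped reads per junction; multi-mapped counts entered 1 alternative. The tables were joined on position, a missing junction counting as 0. The 9 windows, the isoforms named and the gene lists were chosen with earlier results of these data known. Windows of the partner and marker genes were written from general knowledge of hg19, not taken from an annotation of that build, and only annotated junctions inside them on the gene's strand were summed. Of the 8 marker genes, 2 are not reported here.

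Gene totals were tested with edgeR 4.0.16 (R 4.3.3), TMM factors over annotated junctions and at least 10 reads in at least 3 libraries. Usage events took 2 counts per library, an intercept per library and count type by S34F as the tested term, with at least 20 reads in every library and 10 on each side. All usage classes used junctions with a canonical motif. SE was computed from the coefficient and the F statistic. Named events were, per gene and class, up to 3 with a mean share between 5% and 95% and the largest difference, the most-read junction and documented isoforms; further events named were chosen after their values were seen. Alternatives used DESeq2 1.42.0 and limma 3.58.1. The scripts were tested on simulated data. Reads carry no molecular identifiers, and promoter sequence came from RefSeq, GRCh38.p14. Genome sequence of hg19 was not used here.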

Additional observations from a re-analysis of the deposited data

How the results depend on the processing

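The number of the 9 factors called in gene totals was 0 under each alternative run except with no low-count filter, where it was 1, RUNX1. No usage class called a member under any alternative run, and leaving out each library called 0. Some of these runs called few or no events anywhere, so that their 0 members say little. Without S34F replicate 3, for example, 0 of 16027 cassette exons and 4 of 39059 donor usage events were called over the genome. Only the newer edgeR dispersion estimate was chosen after seeing the data.

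Leaving out 1 library gave log2 differences that changed sign for GATA2 (-0.34 to 0.023), NFE2 (-0.24 to 0.10) and LMO2 (-0.38 to 0.21); LMO2 was also -0.041 with limma-voom and -0.055 with the replicate block. In log2 odds, acceptor usage changed sign at TAL1 47697838 to 47695024 (0.0059 with limma, -0.44 to 0.20 leaving out libraries), TAL1 to 47691562 (-0.67 to 0.10), NFE2 54694584 to 54689089 (0.0021 with multi-mapped reads, -0.27 to 0.24) and to 54694061 (-0.33 to 0.19), and MYB 135520189 to 135521222 (-0.25 to 0.85). It did so at GFI1B 135863856 to 135864447 (-0.058 with DESeq2, -0.087 with limma, -0.14 with the replicate block, -0.50 to 0.49) and RUNX1 36206706 to 36171760 (-0.038 with DESeq2, -0.0075 with multi-mapped reads, -0.015 with the replicate block, -0.64 to 0.46). Donor usage did at GFI1B 135863856 to 135865128 (-0.73 to 0.23) and, into RUNX1 36171760, from 36206706 (-0.69 to 0.029) and from 36231770 (-0.093 to 0.62). Inclusion did for GFI1B 138 nt (-0.0092 with the replicate block, -0.35 to 0.57), MYB 122 nt (-0.10 to 0.67), NFE2 130 nt (-0.39 to 0.11), TAL1 447 nt (-0.30 to 0.20) and TAL1 156 nt (-0.28 to 0.42). None of these was called; the cause was not tested. The difference in the unannotated share over the 9 genes was 0.0134 to 0.611 percentage points leaving out libraries.

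Calls over the whole gene table numbered 226, and 400 with no TMM, 1314 with DESeq2, 100 with limma-voom, 5152 with no low-count filter and 0 to 603 leaving out libraries. Acceptor usage calls numbered 1092, and 110 with DESeq2, 0 with limma (9348 at an unadjusted p under 0.05), 495 with no filter, 2392 with no minimum difference and 77 to 1932 leaving out libraries. For donor usage the numbers were 451, and 43, 0 (7559), 208, 983 and 4 to 1208. For competing acceptors they were 162, and 36, 9, 95, 371 and 114 to 169. For cassette exons they were 481, and 72 with DESeq2, 0 with limma (4148), 1056 with no minimum and 0 to 1051. With the replicate block the gene table gave 49 calls, cassette exons 215 and the 9 genes 0 in every class. Same-numbered libraries did not deviate together (r = -0.161, -0.126 and -0.0407), so the numbers do not pair them. For differently numbered libraries r ran from -0.111 (wild-type replicate 3 with S34F replicate 2) to 0.20 (wild-type replicate 1 with S34F replicate 2). Whether libraries of different number share a batch was not tested. Depth limits the TAL1, LMO2, RUNX1 and GATA2 first exon shares. They rest on fewer than 100 reads in several libraries, and for TAL1 in all 6.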
